A study of Mus musculus with 18 samples.

Results

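The comparison described here set ipsilateral cortex 28 d after transient middle cerebral artery occlusion (R28d_C) against ipsilateral cortex of sham-operated mice (Sham_C), both in the scramble arm. The members are these 6 of the 18 libraries, 3 in each group, and the 13419 of 37319 genes with at least 1 FPKM (fragments per kilobase of transcript, scaled to the mapped fragments of the library) in at least 3 of the 6. R28d_C mice were adult male C57BL/6J mice that had received an adeno-associated virus carrying a scramble shRNA (AAV-SYN-shRNA-Con) in the left lateral ventricle, had the artery occluded 4 weeks later and were killed 28 d after that. Sham_C mice received the same virus and a sham operation 4 weeks later, and the time at which they were killed is not given in the sources used here. When purchased, all were 8 to 10 weeks old and 24.0 to 26.0 g by the labels. R28d_T and Sham_T mice, used below as a second pair that shares no library with the first, were treated in the same way but received AAV-SYN-shRNA-TIPARP, which is described as a neuron-specific knockdown of Tiparp. R24h_C and R24h_T are the 24 h groups of the scramble and Tiparp arms. Thus every control also carried a virus and an injection into the ventricle. The labels number the libraries of a group 1 to 3 but do not say that they are separate mice, so that the p-values speak for these libraries only.

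Transient occlusion of the middle cerebral artery cuts blood flow to the lateral cortex and striatum and then restores it. Weeks later the dead tissue is bordered by a glial scar: astrocytes around it keep a reactive state with high Gfap, an intermediate filament, and microglia and macrophages that clear debris express complement, lysosomal and antigen presentation genes. Neurons that survive show altered excitability, and oligodendrocytes are renewed from precursors. In whole-tissue RNA, fewer cells of a type and less RNA per cell cannot be told apart.

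Deposited FPKM give no read totals. The rough depth of the 6 libraries relative to Sham_C1, from the spacing of low values, was 1.01 to 1.08, which rests on 13.3% to 15.6% of low genes. Libraries of a group correlated across genes at r = 0.973 to 0.980 in R28d_C and 0.982 to 0.984 in Sham_C, and the share of FPKM on mitochondrially encoded genes was 38.4% ± 2.54 in R28d_C and 40.0% ± 1.60 in Sham_C (SD, n = 3 each, exact two-sided permutation p = 0.5, where 0.1 is the smallest possible). Over the pan-reactive astrocyte genes the 28 d libraries were spread out, with R28d_C1 nearest to sham and R28d_C2 farthest from it. The median distance of R28d_C1 from the sham mean on the log2(FPKM + 1) scale was 0.23. It was 2.64 in R28d_C2 and 1.21 in R28d_C3, with sham libraries at -0.09 to 0.07. Counts of calls are therefore given with and without R28d_C1. Tiparp itself, the gene targeted in the other arm, was at 4.46, 3.59 and 3.77 FPKM in R28d_C and 4.45, 4.76 and 3.77 FPKM in Sham_C, which overlap (-0.11 ± 0.10 on the log2 scale, adjusted p = 0.699). Camk2a, a defining marker of cortical excitatory neurons, was at 329.6 to 445 FPKM across the 6 libraries. In the annotation (GENCODE M21) exons of Spp1, Trf and Cd74 overlap another gene model on the same strand and those of Cx3cr1, P2ry12, Csf1r, Cd52, Fn1, Penk, Cdc42bpa, Rps25, Olig1, Angpt1, Ptpn6 and Tiparp one on the opposite strand, so these values may hold reads of a neighbour.

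By limma on log2(FPKM + 1), with Benjamini and Hochberg adjustment over all genes tested, 3 genes rose and 4 fell in R28d_C relative to Sham_C at an adjusted p under 0.05, 0.0224% and 0.0298% of the 13419 tested. Those lower were Cx3cl1, Pcdhga4, Mapk14 and Ube2o, and those higher were Vgf, Scn1a and Tmem88b. At an unadjusted p under 0.05 there were 1038 higher (7.74%) and 504 lower (3.76%). In 1691 genes (12.6%) all R28d_C values lay above all Sham_C values, and in 816 (6.08%) all lay below. After scaling each library by its median ratio these counts were 1044 and 1378, which turns the balance round, with a shift of the median difference over all genes that was small (0.04 as deposited, -0.01 after scaling). Small differences in 1 direction over many genes are thus not read here.

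**Figure D1:**
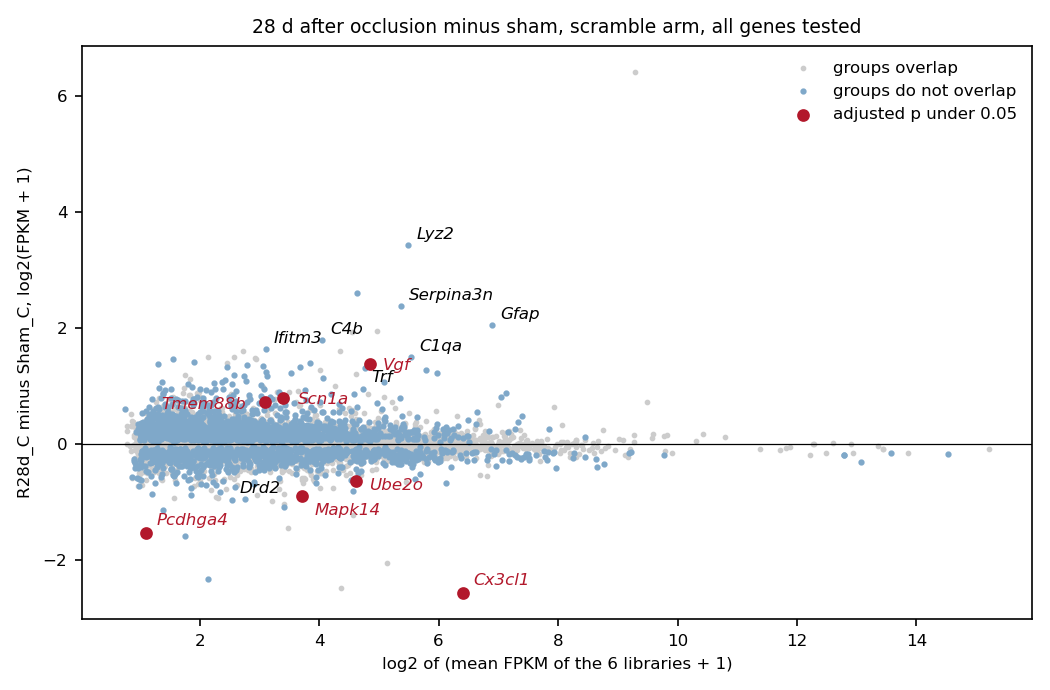
Each point is 1 of the 13419 genes tested, at its mean level over the 6 libraries (horizontal, log2 of FPKM + 1) and its difference R28d_C minus Sham_C (vertical, log2 of FPKM + 1). Red points are the 7 genes past the threshold. Lyz2, at 3.44, had a larger difference than any of them, and Gfap, at 2.05, than all but Cx3cl1. Neither passed the threshold. The highest grey point, at 6.42, is the microRNA gene Mir8114, whose groups overlap.

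Cx3cl1 encodes fractalkine, a membrane-bound chemokine made by neurons whose receptor in the brain is on microglia. Its level was 24.7, 21.1 and 24.4 FPKM in R28d_C, against 144, 152 and 134 FPKM in Sham_C. The groups were far apart and tight within themselves, and the gene fell by 2.57 ± 0.08 on the log2 scale (SE, adjusted p = 0.000207), to 0.163 of the sham mean in FPKM. It passed with each library left out in turn (adjusted p 0.000708 to 0.00496). Outside these 6 libraries its level did not follow the groups. R28d_T libraries had 13.7, 32.8 and 138 FPKM and Sham_T libraries 22.7, 136 and 14.8 FPKM, so that both groups held low and high values. Over all 18 libraries, 10 lay at 11.2 to 32.8 FPKM and 8 at 102 to 152 FPKM with none between, and both bands occurred within 4 of the 6 groups. Cx3cr1, the receptor, was at 1.68, 18.01 and 1.81 FPKM in R28d_C and 8.58, 8.82 and 10.9 FPKM in Sham_C and did not pass (-0.99 ± 0.72 on the log2 scale, adjusted p = 0.617). One R28d_C library, R28d_C2, was above and the other 28 d libraries were below all sham libraries. Without R28d_C2 the difference was -1.92 (adjusted p = 0.0134), past the threshold, and without R28d_C1 it was -0.51 (adjusted p = 0.772). R28d_C2 was singled out with its values seen, so this is no test of a change. With any other library left out Cx3cr1 did not pass. Cx3cr1 in the Tiparp arm was at 3.98, 12.7 and 10.1 FPKM in R28d_T and 10.5, 10.6 and 1.68 FPKM in Sham_T, so that low and high values occurred in both groups there too.

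The promoter of Cx3cl1 is shown because this gene had the smallest p. The sequence is RefSeq's, build GRCm38.p6, chr8:94771930-94772229, plus strand, from 250 bases before the start to 50 after it, with the letters GGGCGG (GC box, either strand) in capitals.
Cx3cl1: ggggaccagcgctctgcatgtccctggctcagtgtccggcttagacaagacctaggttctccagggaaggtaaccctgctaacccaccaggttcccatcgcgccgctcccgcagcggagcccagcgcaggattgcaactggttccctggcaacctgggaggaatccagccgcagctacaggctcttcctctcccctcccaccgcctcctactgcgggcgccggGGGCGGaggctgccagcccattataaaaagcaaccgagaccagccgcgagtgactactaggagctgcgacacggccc
This window held 1 GC box, which 38.2% of 27025 gene symbols with a promoter in the table have, and no match to the interferon element, NF-kB, STAT, AP-1 or CRE letters searched. A match describes letters only.

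Pcdhga4, a gamma-protocadherin of the clustered adhesion genes by which neurons tell their own branches from others, had 0.141, 0.0917 and 0.0653 FPKM in R28d_C and 2.07, 2.32 and 2.15 FPKM in Sham_C. It fell by 1.53 ± 0.08 on the log2 scale (adjusted p = 0.00317). The gamma genes share their 3' exons with one another, so that reads can be split between them, and the value is uncertain for that reason. Of 57 clustered protocadherin genes, 35 were tested and no other passed. Pcdhgb1 was at 13.1, 2.58 and 5.87 FPKM in R28d_C and 2.02, 1.79 and 1.596 FPKM in Sham_C (adjusted p = 0.372). In the Tiparp arm Pcdhga4 was at 0.119, 0.0964 and 1.77 FPKM in R28d_T and 2.35, 2.17 and 2.28 FPKM in Sham_T. There the 28 d values also lay below sham, and R28d_T3 was close to it.

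Mapk14, the p38 alpha kinase of stress and cytokine signalling, was at 9.01, 8.26 and 7.17 FPKM in R28d_C and 16.5, 15.9 and 15.7 FPKM in Sham_C. It fell by 0.90 ± 0.09 on the log2 scale (adjusted p = 0.0365). None of the other 19 tested genes of the p38 pathway list passed, and their list median was 0.06. R28d_T libraries had 8.89, 7.68 and 15.97 FPKM and Sham_T libraries 8.51, 8.79 and 15.4 FPKM. In each of those groups 1 library was high and the others were low.

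Ube2o, a large enzyme that both carries ubiquitin and selects its substrates, was at 17.4, 18.4 and 18.6 FPKM in R28d_C and 27.9, 28.9 and 29.8 FPKM in Sham_C. It fell by 0.64 ± 0.06 on the log2 scale (adjusted p = 0.0365). In the Tiparp arm the order was the other way round, with 25.9, 23.5 and 27.2 FPKM in R28d_T and 17.2, 17.4 and 18.4 FPKM in Sham_T. The difference between the arms, tested as an interaction over 14242 genes, was -1.15 on the log2 scale (adjusted p = 0.00165), and Ube2o was the only gene to pass that test (0.00702%). Among 29 tested ubiquitin-conjugating enzyme genes none other passed in R28d_C against Sham_C.

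Vgf, the precursor of neuropeptides stored in dense-core vesicles, had 45.6, 38.2 and 38.1 FPKM in R28d_C and 14.4, 16.7 and 13.5 FPKM in Sham_C. It rose by 1.39 ± 0.11 on the log2 scale (adjusted p = 0.0202). No other of the 15 tested neurosecretory and neurotrophic genes passed. Ntrk2, the receptor of brain-derived neurotrophic factor, was at 36.8, 46.3 and 41.6 FPKM in R28d_C and 32.9, 34.5 and 33.7 FPKM in Sham_C, without overlap (adjusted p = 0.365). For Vgf, R28d_T libraries had 11.4, 35.6 and 18.2 FPKM and Sham_T libraries 33.9, 38.6 and 16.1 FPKM, which overlap.

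Scn1a encodes the sodium channel Nav1.1, which is prominent in fast-spiking inhibitory neurons. It was at 12.4, 11.3 and 13.4 FPKM in R28d_C and 6.69, 6.58 and 6.803 FPKM in Sham_C and rose by 0.79 ± 0.07 on the log2 scale (adjusted p = 0.0365). The remaining 28 tested channel genes did not pass, and the list median was -0.06. R28d_T libraries had 8.83, 5.33 and 12.1 FPKM and Sham_T libraries 11.4, 9.99 and 4.93 FPKM, which overlap. Over all 18 libraries the widest gap between neighbouring Scn1a levels, on the log2 scale, lay between 6.803 and 8.37 FPKM, and 4 of the 6 groups had libraries on both sides of it.

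Tmem88b, a transmembrane protein gene, was at 9.38, 9.46 and 10.2 FPKM in R28d_C and 5.25, 5.49 and 5.68 FPKM in Sham_C. It rose by 0.72 ± 0.06 on the log2 scale (adjusted p = 0.0365). R28d_T libraries had 14.2, 16.1 and 5.03 FPKM and Sham_T libraries 10.5, 9.18 and 9.25 FPKM, with 1 R28d_T library below all of Sham_T. The 7 calls depended on single libraries: without R28d_C1 all 7 passed, and without R28d_C2, R28d_C3, Sham_C1, Sham_C2 or Sham_C3 only 4, 2, 1, 2 and 1 of them did. In a fit over all 18 libraries, which share 1 estimate of the spread, none of the 7 passed. Levels on both sides of the widest gap over the 18 libraries occurred within 3 of the 6 groups for Vgf, Mapk14, Pcdhga4 and Ube2o and within 1 for Tmem88b.

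**Figure D2:**
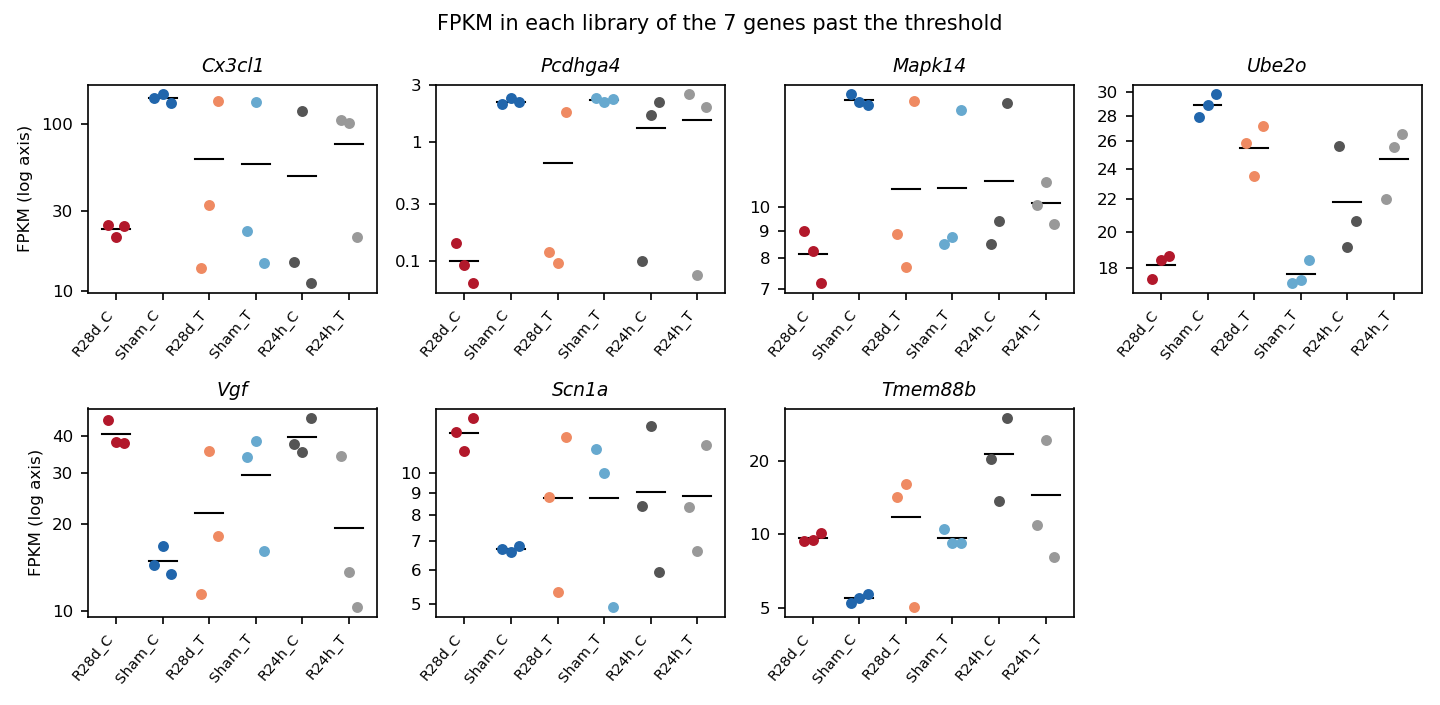
FPKM (log axis) of each called gene in all 18 libraries, 1 point per library, with the group mean as a bar. R28d_C and Sham_C are tight and apart in each panel, while the other groups of Cx3cl1 hold values from both its low band (11.2 to 32.8 FPKM) and its high band (102 to 152 FPKM).

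Just short of the threshold, Npcd had an adjusted p of 0.0551 (-0.95 ± 0.10 on the log2 scale). Its exons overlap those of Cbx6 and Nptxr on the same strand, so its value is uncertain. Cdc42bpa, a kinase that acts on the actin cytoskeleton downstream of Cdc42, was at 12.9, 14.9 and 13.5 FPKM in R28d_C and 7.66, 7.89 and 8.53 FPKM in Sham_C (adjusted p = 0.0571). Wnt10b, a secreted Wnt ligand, had 0.855, 0.608 and 0.468 FPKM in R28d_C and 2.19, 3.04 and 2.56 FPKM in Sham_C (adjusted p = 0.0693). Rps25, a protein of the small ribosomal subunit, was at 18.8, 21.2 and 17.6 FPKM in R28d_C and 12.1, 10.7 and 10.7 FPKM in Sham_C (adjusted p = 0.0829). Its levels in the Tiparp arm, 24.5, 20.4 and 19.2 FPKM in R28d_T and 12.7, 12.3 and 12.6 FPKM in Sham_T, did not overlap either, and the difference was 0.72 there.

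Gene lists of cell types and pathways are described by how many members had all R28d_C values above, or below, all Sham_C values. Over the 32796 genes with any value in the 6 libraries this held for 8.68% (higher) and 4.44% (lower). With the exception of the 7 genes above, no member of the 38 lists passed the test, so the values below are descriptions. Glial and immune lists are given first. In the pan-reactive astrocyte, homeostatic and disease-associated microglia, complement, antigen presentation and interferon lists, by their medians, R28d_C1 lay nearest to sham and R28d_C2 farthest from it.

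**Figure D3:**
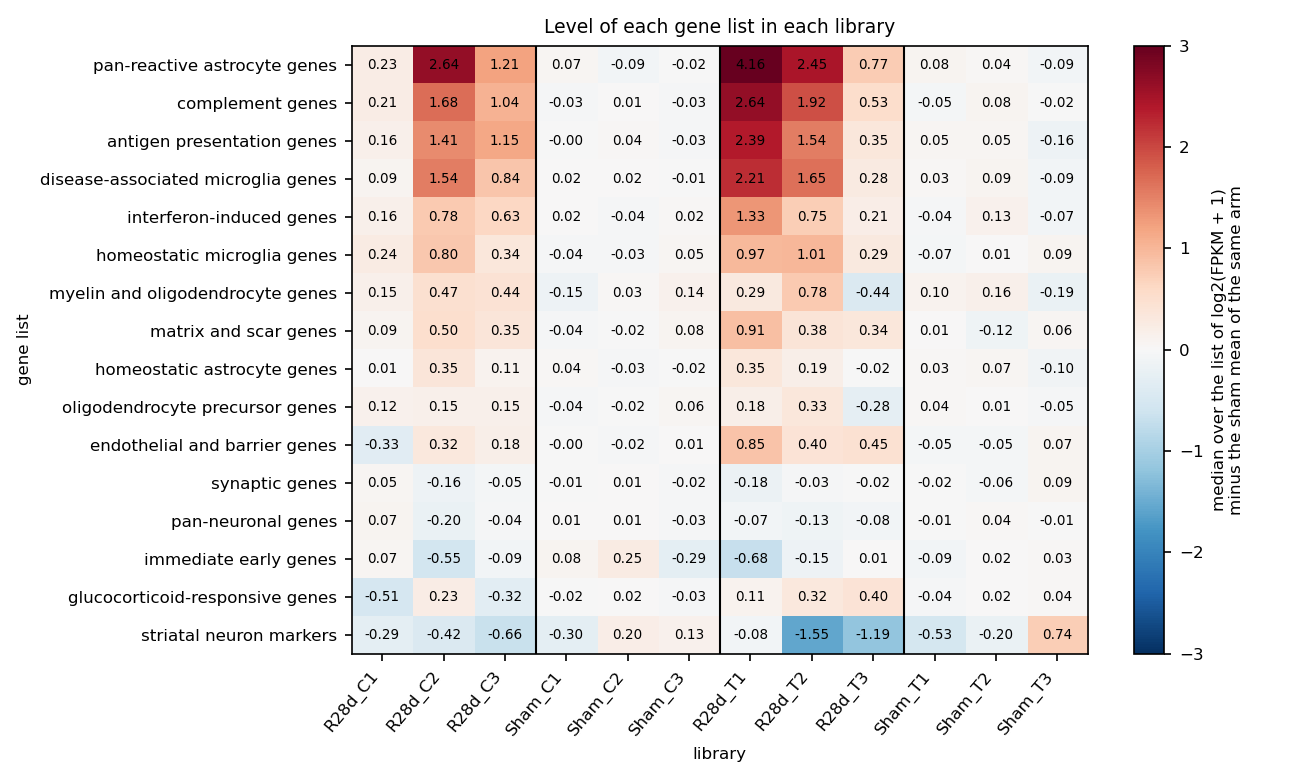
Median over the tested members of each list (rows) of log2(FPKM + 1) minus the sham mean of the same arm, in each library (columns). In the pan-reactive astrocyte, disease-associated microglia, complement, antigen presentation and interferon lists R28d_C2 and R28d_C3 are above all sham libraries, by medians of 0.63 to 2.64, while R28d_C1 is at 0.23 for pan-reactive astrocyte genes and 0.09 for disease-associated microglia genes. Among R28d_T libraries R28d_T3 is the nearest to sham in these 5 lists. Lymphocyte and plasma cell markers, of which 2 were tested, are not drawn. Their median was below the sham mean in R28d_C1 (-0.22), R28d_C2 (-0.61) and R28d_C3 (-0.23), with sham libraries at -0.34 to 0.28. The 2 tested genes differed in sign (-0.85 and 0.14). Of the 15 members with a value, 4 were higher and 1 lower without overlap, where 8.68% and 4.44% of all genes were.

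Of 13 pan-reactive astrocyte genes, 6 were higher without overlap and none lower, and 6 were expressed enough to be tested, with a median difference of 1.33. Gfap was at 37.8, 407 and 165 FPKM in R28d_C and 35.6, 29.9 and 31.7 FPKM in Sham_C. R28d_C1 was just above the highest sham library and the other 28 d libraries far above (2.05 ± 0.76 on the log2 scale, adjusted p = 0.402). Serpina3n, a secreted protease inhibitor, had 9.43, 153 and 55.6 FPKM in R28d_C and 8.14, 6.19 and 8.67 FPKM in Sham_C (2.38 ± 0.88 on the log2 scale, adjusted p = 0.397). Vim, the intermediate filament vimentin, overlapped, at 2.33, 21.2 and 9.09 FPKM in R28d_C and 3.63, 1.82 and 1.72 FPKM in Sham_C. All 7 of the 13 genes that were tested in the Tiparp arm were higher in R28d_T than in Sham_T without overlap. Of the 13544 genes tested there, 10.9% were higher in that way and 5.43% lower. A gene could enter the test in that arm through high R28d_T values alone, so this count is not comparable with the 6 of 13. Gfap there was at 886, 533 and 96.8 FPKM in R28d_T and 49.5, 40.2 and 27.5 FPKM in Sham_T. Of 12 ischemia-type reactive astrocyte genes, 3 were higher and 1 lower without overlap, and the median of the 3 tested was 0.15.

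The Gfap promoter is printed as that of the defining astrocyte gene (RefSeq, GRCm38.p6, chr11:102897151-102897450, minus strand, same window). Capitals mark the STAT letters TTCNNNGAA.
Gfap: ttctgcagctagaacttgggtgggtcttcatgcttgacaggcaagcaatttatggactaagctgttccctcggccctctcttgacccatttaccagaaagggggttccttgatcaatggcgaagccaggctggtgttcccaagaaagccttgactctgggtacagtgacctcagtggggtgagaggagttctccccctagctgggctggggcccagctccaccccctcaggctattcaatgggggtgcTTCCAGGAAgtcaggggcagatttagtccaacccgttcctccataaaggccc
It held 1 such match, which 9.55% of the gene symbols have, and none of the other letters searched.

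Homeostatic astrocyte genes were 14, all tested, of which 4 were higher and 1 lower without overlap, with a median of 0.09. Kcnj10, the Kir4.1 channel that buffers potassium, was at 34.5, 41.2 and 41.8 FPKM in R28d_C and 26.1, 26.3 and 23.6 FPKM in Sham_C (0.60 ± 0.09 on the log2 scale, adjusted p = 0.203). All 28 d libraries were clearly above sham, R28d_C1 included. Aqp4, the water channel of astrocyte end feet, had 19.04, 40.6 and 30.9 FPKM in R28d_C and 18.3, 14.9 and 13.5 FPKM in Sham_C, and R28d_C1 was barely above sham. Sox9, a transcription factor of astrocytes, was at 8.695, 12.9 and 11.4 FPKM in R28d_C and 7.81, 7.64 and 7.23 FPKM in Sham_C. Of these, only Kcnj10 was even among the 28 d libraries.

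Homeostatic microglia genes were higher without overlap in 6 of 12 members and lower in none, with a median of 0.46. P2ry13, a purine receptor of microglia, had 5.84, 6.61 and 5.57 FPKM in R28d_C and 3.28, 3.45 and 3.62 FPKM in Sham_C (0.65 ± 0.08 on the log2 scale, adjusted p = 0.0829). Its values were even across the 28 d libraries. Tmem119, a surface marker of resident microglia, was at 10.04, 12.9 and 8.77 FPKM in R28d_C and 7.198, 6.84 and 7.27 FPKM in Sham_C. Csf1r, the receptor on which microglia depend for survival, was at 20.7, 34.8 and 24.8 FPKM in R28d_C and 16.4, 16.8 and 18.7 FPKM in Sham_C. P2ry12, which senses nucleotides released by damaged cells, overlapped, at 10.9, 9.47 and 14.3 FPKM in R28d_C and 13.5, 12.8 and 8.52 FPKM in Sham_C.

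Among 19 disease-associated microglia genes 10 were higher without overlap and none lower, and the median of the 12 tested was 0.83. Trem2, a lipid-sensing receptor that drives this state, had 3.24, 9.94 and 5.16 FPKM in R28d_C and 2.35, 2.26 and 2.55 FPKM in Sham_C (0.96 ± 0.31 on the log2 scale). Tyrobp, its signalling adaptor, was at 21.1, 63.2 and 31.8 FPKM in R28d_C and 11.97, 14.4 and 14.2 FPKM in Sham_C (1.31 ± 0.35 on the log2 scale). Both were above sham in each 28 d library. Spp1 (osteopontin), secreted by phagocytes, was at 4.97, 57.4 and 34.3 FPKM in R28d_C and 6.77, 6.34 and 6.55 FPKM in Sham_C. For Spp1, R28d_C1 lay below every sham library. Apoe, a lipid carrier of astrocytes and microglia, overlapped in the same way, at 496, 1373 and 895 FPKM in R28d_C and 522, 504 and 506 FPKM in Sham_C.

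Complement genes were higher without overlap in 6 of 13 members and lower in none, with a median of 0.98 over the 10 tested. C1qa, a subunit of the initiating C1q complex, had 35.5, 111 and 60.3 FPKM in R28d_C and 23.6, 19.8 and 20.6 FPKM in Sham_C (1.50 ± 0.37 on the log2 scale, adjusted p = 0.338). C4b, the next component of the classical cascade, was at 5.93, 50.2 and 22.6 FPKM in R28d_C and 4.75, 4.24 and 5.71 FPKM in Sham_C (1.79 ± 0.65 on the log2 scale). C3, on which the cascade converges, was too low to be tested, at 0.121, 27.02 and 14.7 FPKM in R28d_C and 0.0498, 0.105 and 0.0452 FPKM in Sham_C. C1qa was above sham in all 28 d libraries, whereas C3 was near 0 in R28d_C1.

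Lyz2, the lysozyme of macrophages and neutrophils, showed the largest difference among genes without overlap, at 6.11, 119 and 128 FPKM in R28d_C and 3.505, 3.37 and 3.41 FPKM in Sham_C (3.44 ± 1.06 on the log2 scale, adjusted p = 0.365). Cd52, a small surface glycoprotein of leukocytes, had 1.97, 6.22 and 5.49 FPKM in R28d_C and 0.956, 1.06 and 0.826 FPKM in Sham_C (1.41 ± 0.32 on the log2 scale). Monocyte and border macrophage markers were higher without overlap in 5 of 13 members, and their summed level ranged from 8.94 to 136 FPKM in R28d_C and from 5.67 to 6.002 FPKM in Sham_C. Elane among the neutrophil markers and Gzmb among the lymphocyte markers were listed at 0 in all 6 libraries. Neutrophil markers summed to 2.42 to 10.2 FPKM in R28d_C and 2.93 to 3.35 FPKM in Sham_C. Lymphocyte and plasma cell markers, 4 of 15 higher and 1 lower without overlap, summed to 14.6 to 27.6 FPKM in R28d_C and 15.3 to 22.1 FPKM in Sham_C. Their part in the values above was not tested.

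**Figure D4:**
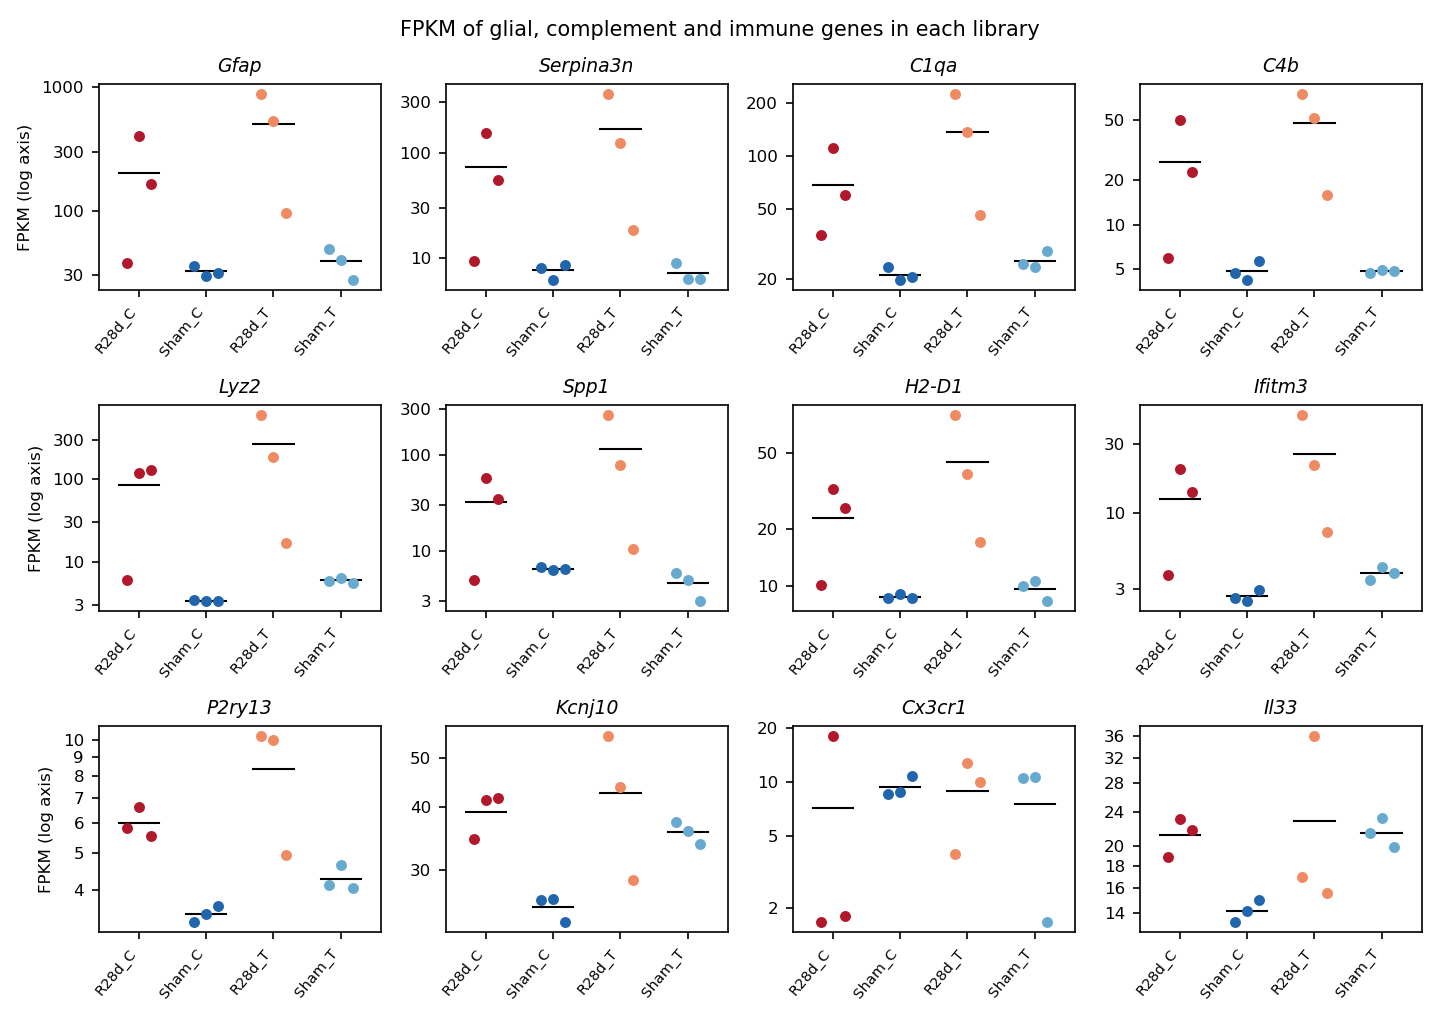
FPKM (log axis) of 12 glial, complement and immune genes in R28d_C, Sham_C, R28d_T and Sham_T, 1 point per library in the order of the replicate numbers, with the group mean as a bar. For Lyz2 the 28 d library nearest to sham is R28d_C1, at 6.11 FPKM, while P2ry13 and Kcnj10 are even among the R28d_C libraries.

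Antigen presentation genes were higher without overlap in 8 of 14 members and lower in none, with a median of 0.92 over the 6 tested. H2-D1, a classical class I heavy chain, was at 10.1, 32.4 and 25.7 FPKM in R28d_C and 8.64, 9.06 and 8.63 FPKM in Sham_C (1.13 ± 0.38 on the log2 scale). B2m, the light chain of class I, had 100.04, 231 and 180.04 FPKM in R28d_C and 91.5, 97.3 and 84.00 FPKM in Sham_C (0.82 ± 0.28 on the log2 scale). Cd74, the invariant chain of class II, was at 1.99, 9.57 and 16.7 FPKM in R28d_C and 1.06, 2.36 and 1.84 FPKM in Sham_C, and R28d_C1 overlapped sham. H2-D1 and the related H2-K1 are near-identical class I genes, so their reads can be exchanged.

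Interferon-induced genes were higher without overlap in 12 of 16 members and lower in none, the highest share of the lists described here, and the 6 tested had a median of 0.56. Ifitm3, a membrane protein that blocks virus entry, had 3.704, 19.99 and 13.8 FPKM in R28d_C and 2.57, 2.46 and 2.96 FPKM in Sham_C (1.64 ± 0.51 on the log2 scale, adjusted p = 0.365). Ifit3, a cytosolic antiviral protein, was at 4.86, 8.23 and 6.98 FPKM in R28d_C and 3.67, 3.73 and 3.11 FPKM in Sham_C (0.75 ± 0.17 on the log2 scale). For both genes R28d_C1 was the lowest of its group and above sham.

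Promoters of an interferon-induced and a class I gene that stood above sham are shown side by side (RefSeq, GRCm38.p6), Ifitm3 at chr7:141010695-141010994 on the minus strand and B2m at chr2:122147437-122147736 on the plus strand. Capitals mark the interferon-stimulated response element letters, GAAA followed by NN and GAAA, searched on both strands.
Ifitm3: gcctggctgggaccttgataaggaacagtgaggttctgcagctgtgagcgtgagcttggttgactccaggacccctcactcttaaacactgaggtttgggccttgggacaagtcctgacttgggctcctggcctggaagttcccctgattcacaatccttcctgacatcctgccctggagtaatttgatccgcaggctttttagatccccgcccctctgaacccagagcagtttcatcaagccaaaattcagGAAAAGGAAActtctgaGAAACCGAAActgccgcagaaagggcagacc
B2m: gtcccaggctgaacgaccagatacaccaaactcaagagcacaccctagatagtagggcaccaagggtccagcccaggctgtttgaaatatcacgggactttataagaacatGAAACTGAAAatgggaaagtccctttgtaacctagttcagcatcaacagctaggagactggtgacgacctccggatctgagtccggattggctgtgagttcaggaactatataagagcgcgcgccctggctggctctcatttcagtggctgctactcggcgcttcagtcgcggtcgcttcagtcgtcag
Ifitm3 held 2 such matches and B2m 1. At least 1 was present in 10 of the 12 interferon-induced genes with a promoter in the table, against 3.99% of all 27025 gene symbols, and in 1 of 9 antigen presentation genes. Since interferon-induced genes are known by such elements, this describes the list, not the samples.

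Cytokine and chemokine genes other than Cx3cl1 included Il33, an alarmin kept in nuclei of oligodendrocytes and astrocytes, at 18.9, 23.1 and 21.8 FPKM in R28d_C and 13.3, 14.1 and 14.98 FPKM in Sham_C (0.55 ± 0.09 on the log2 scale, adjusted p = 0.239). It was even across the 28 d libraries. In the Tiparp arm it overlapped, at 16.9, 36.03 and 15.6 FPKM in R28d_T and 21.5, 23.2 and 19.9 FPKM in Sham_T. Matrix and scar genes were higher without overlap in 9 of 20 members and lower in none. Bgn (biglycan), a small proteoglycan, had 1.55, 4.81 and 5.06 FPKM in R28d_C and 1.04, 1.13 and 1.37 FPKM in Sham_C (1.04 ± 0.32 on the log2 scale). Fn1 (fibronectin) was at 1.95, 3.62 and 5.304 FPKM in R28d_C and 1.604, 1.79 and 1.93 FPKM in Sham_C (0.67 ± 0.26 on the log2 scale). Dcn (decorin), which meningeal fibroblasts also make, was at 4.797, 10.6 and 9.87 FPKM in R28d_C and 2.82, 3.62 and 3.296 FPKM in Sham_C. Meningeal and red blood cell markers, 4 of 11 higher without overlap, summed to 217 to 476 FPKM in R28d_C and 178 to 268 FPKM in Sham_C, and their part in the matrix values was not tested.

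No endothelial and barrier gene was without overlap among 14. Cldn5, a tight junction protein, was at 0.879, 3.23 and 3.001 FPKM in R28d_C and 1.52, 1.204 and 1.38 FPKM in Sham_C, with R28d_C1 below sham and the other libraries above. Acta2, the actin of mural cells, was at 1.98, 3.79 and 3.46 FPKM in R28d_C and 1.37, 1.67 and 1.16 FPKM in Sham_C (0.74 ± 0.19 on the log2 scale), the single mural marker of 10 without overlap. Angpt1, a vessel-stabilizing ligand of the Tie2 receptor, was at 1.15, 1.86 and 1.82 FPKM in R28d_C and 0.990, 0.713 and 0.844 FPKM in Sham_C. It entered the test only because R28d_C libraries exceeded 1 FPKM.

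With R28d_C1 left out, limma called 161 genes higher (1.21% of 13290) and 27 lower (0.203%). This library was singled out after its values were seen, as the one nearest to sham in glial and immune lists. Leaving it out favours higher calls and counts in those lists. The calls and the counts without overlap below thus describe the remaining 5 libraries and are no test of a change. The calls included 7 of 10 tested complement genes, among them C1qa, C1qb and C4b, and 5 of 6 tested antigen presentation genes. Lyz2 had a difference of 4.81 (adjusted p = 8.65e-06), Gfap 2.97 (adjusted p = 0.0323), Ifitm3 2.27 (adjusted p = 0.0101) and Spp1 2.59 (adjusted p = 0.0133). Each of the 13 pan-reactive astrocyte genes, the 14 antigen presentation genes and the 16 interferon-induced genes was then higher without overlap, where 19.5% of all genes with a value were. So were 18 of 19 disease-associated microglia genes, 12 of 13 complement genes, 12 of 13 monocyte and border macrophage markers, 17 of 20 matrix and scar genes and 16 of 19 myelin genes. Ischemia-type reactive astrocyte genes were higher in 9 of 12 members, endothelial and barrier genes in 10 of 14 (71.4%) and mural markers in 8 of 10, against 3, 0 and 1 with all 6 libraries. In the neuronal lists it was the lower members that became more. Without R28d_C1, 6 of 13 pan-neuronal genes (46.2%), 7 of 16 excitatory markers (43.8%), 4 of 22 synaptic genes and 8 of 29 channel genes (27.6%) were lower without overlap, against 7.53% of all genes. Leaving out any other library gave 0 to 4 genes higher and 1 to 5 lower.

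Myelin and oligodendrocyte genes were higher without overlap in 9 of 19 members and lower in none, with a median of 0.36, and 18 of the 19 differences were above 0. Trf (transferrin), an iron carrier of oligodendrocytes, had 27.8, 38.7 and 35.9 FPKM in R28d_C and 15.6, 17.05 and 18.3 FPKM in Sham_C (0.96 ± 0.13 on the log2 scale, adjusted p = 0.153). Mag, an adhesion protein of the inner myelin wrap, was at 19.7, 23.1 and 25.5 FPKM in R28d_C and 12.6, 15.5 and 17.9 FPKM in Sham_C (0.55 ± 0.14 on the log2 scale). These 28 d libraries were closer to each other than in the glial lists, although R28d_C1 was again the lowest. Mbp, the basic protein that compacts myelin, overlapped, at 96.6, 124 and 98.3 FPKM in R28d_C and 90.2, 99.9 and 104 FPKM in Sham_C. Oligodendrocyte precursor genes, which include those of the whole lineage, were higher without overlap in 3 of 10 members; Olig1 was at 25.05, 25.9 and 26.8 FPKM in R28d_C and 18.6, 20.6 and 21.00 FPKM in Sham_C. In the Tiparp arm 1 of 19 myelin genes was higher without overlap, against 10.9% of all genes tested there. Trf was at 71.8, 72.1 and 18.3 FPKM in R28d_T and 30.3, 35.7 and 30.6 FPKM in Sham_T, where R28d_T3 lay below sham.

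Striatal neuron markers were lower without overlap in 5 of 12 members and higher in none, with a median of -0.44 over the 11 tested. Drd2, the dopamine receptor of indirect-pathway neurons, had 3.104, 3.35 and 2.15 FPKM in R28d_C and 4.03, 8.33 and 7.78 FPKM in Sham_C (-0.96 ± 0.25 on the log2 scale). Adora2a, the adenosine receptor of the same neurons, was at 2.703, 2.65 and 2.399 FPKM in R28d_C and 3.03, 6.57 and 5.54 FPKM in Sham_C (-0.71 ± 0.22 on the log2 scale). Penk, the precursor of enkephalins, was at 42.6, 43.3 and 36.1 FPKM in R28d_C and 44.04, 75.9 and 59.6 FPKM in Sham_C (-0.52 ± 0.19 on the log2 scale). Sham_C1 was the lowest sham library for all 3 and close to the 28 d values. Without Sham_C1, 9 of 12 markers were lower without overlap, against 7.67% of all genes, and without R28d_C1 8 were, against 7.53%. With any other library left out 5 or 6 were. These 2 libraries were singled out with their values seen, so the counts of 9 and 8 are no test of a change. The list holds markers of striatum, which borders the cortex taken, and their summed level was 122 to 151 FPKM in R28d_C and 158 to 239 FPKM in Sham_C. In the Tiparp arm no striatal marker was without overlap, but the list median was -0.93. By library the median was -0.08 in R28d_T1, -1.55 in R28d_T2 and -1.19 in R28d_T3, with Sham_T libraries at -0.53 to 0.74. Drd2 was at 8.903, 0.750 and 0.788 FPKM in R28d_T and 5.13, 7.65 and 16.8 FPKM in Sham_T. The part of tissue sampling in these values was not tested.

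**Figure D5:**
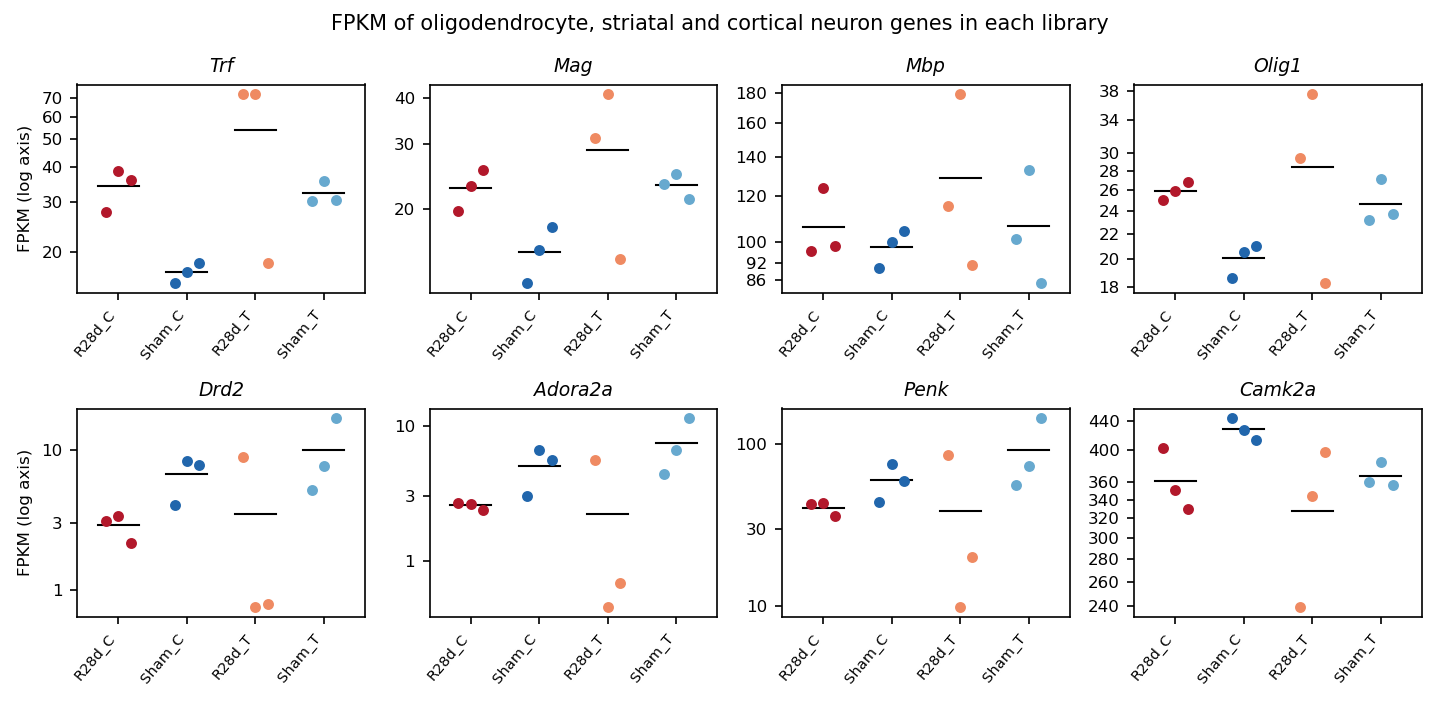
FPKM (log axis) of 3 myelin genes, Olig1, 3 striatal genes and Camk2a in R28d_C, Sham_C, R28d_T and Sham_T, 1 point per library, with the group mean as a bar. Trf, Mag and Olig1 lie above sham and Drd2 and Adora2a below it in all R28d_C libraries, and Mbp overlaps.

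Over all 6 libraries the medians of the neuronal lists were near 0, and their counts depended on single libraries. Pan-neuronal genes had 1 of 13 members higher and 1 lower without overlap, with a median of -0.04 and differences of -0.29 to 0.63. The lower one was Tubb3, a neuronal tubulin, at 129, 110.3 and 149 FPKM in R28d_C and 159, 157 and 157 FPKM in Sham_C. Excitatory neuron and layer markers had 2 of 16 higher and 3 lower, with differences of -0.41 to 0.39 over the 15 tested. Among the lower ones was Camk2a, the calcium-dependent kinase of excitatory synapses, at 403, 352 and 329.6 FPKM in R28d_C and 445, 427 and 413 FPKM in Sham_C (-0.25 ± 0.09 on the log2 scale). Synaptic genes had 2 of 22 higher and 1 lower, with a median of -0.05 and differences of -0.33 to 0.14. The lower synaptic gene was Shank2, a postsynaptic scaffold, at 11.1, 9.76 and 11.2 FPKM in R28d_C and 12.6, 15.1 and 13.3 FPKM in Sham_C (-0.33 ± 0.09 on the log2 scale). The higher members of the pan-neuronal, excitatory and synaptic lists are not named here. Without R28d_C1 more members of these lists were lower, as given above, and without R28d_C2 4 pan-neuronal genes, 4 excitatory markers and 6 synaptic genes were higher, where 14.3% of all genes were. Interneuron markers and peptides had none of 13 higher and 1 lower, with a median of 0.001 and 7 of the 13 differences above 0. The lower one was Npy, a peptide, at 116, 98.3 and 106 FPKM in R28d_C and 129, 159.6 and 129 FPKM in Sham_C (-0.38 ± 0.11 on the log2 scale). Npy was also lower without overlap in the Tiparp arm (-0.31), 1 of 3 such members of the list there, where 5.43% of all genes tested were.

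Immediate early genes, which neuronal activity induces, had 1 of 17 members higher and none lower without overlap, with a median of -0.20. The higher one was Nr4a3, a nuclear receptor, at 5.85, 4.100 and 4.84 FPKM in R28d_C and 2.58, 2.47 and 3.94 FPKM in Sham_C. Egr4, a zinc finger factor, was at 16.3, 10.3 and 11.1 FPKM in R28d_C and 18.2, 19.8 and 15.6 FPKM in Sham_C (-0.50 ± 0.17 on the log2 scale), and overlapped. Without Sham_C3, 10 of the 17 (58.8%) were lower without overlap, against 7.91% of all genes. Sham_C3 was the sham library with the lowest median of this list (-0.29) and was singled out with its values seen. With any other library left out 0 to 2 were lower, so the count is no test of a change. Glucocorticoid-responsive genes had 2 of 16 members lower and none higher, with a median of -0.26. Per1, a clock gene with a glucocorticoid response, had 23.4, 22.3 and 22.8 FPKM in R28d_C and 28.2, 29.5 and 27.4 FPKM in Sham_C (-0.30 ± 0.06 on the log2 scale). Fkbp5, a feedback regulator of the receptor, was at 6.03, 12.8 and 6.68 FPKM in R28d_C and 9.76, 9.53 and 8.99 FPKM in Sham_C, with R28d_C2 above and the other 28 d libraries below sham. Without R28d_C2, 15 of the 16 (93.8%) were lower without overlap, against 7.64% of all genes. R28d_C2 was the 28 d library with the highest median of this list (0.23) and was also singled out with its values seen. With any other library left out 2 or 3 were lower, so this count is no test either. In the Tiparp arm 7 of 15 tested genes of this list were higher without overlap, against 10.9% of all genes tested there. The list median there was 0.25, and the difference between arms did not pass for any gene of the list.

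Stress response genes had 2 of 19 members higher and none lower without overlap, proliferation genes 2 of 13 higher, and genes of the aryl hydrocarbon receptor pathway, through which Tiparp is induced, none of 10 in either direction. Perineuronal net genes had none of 8. Respiratory chain and mitochondrial genes had 1 of 25 higher and 4 lower, with a median of -0.02. Choroid plexus and ependymal markers had none of 10, but their summed level was 6.67 to 93.6 FPKM in R28d_C and 15.3 to 18.02 FPKM in Sham_C, and Ttr, a choroid plexus protein, was at 7.73, 81.9 and 1.92 FPKM in R28d_C and 9.87, 13.4 and 11.1 FPKM in Sham_C. One library, R28d_C2, was thus high.

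R28d_T and Sham_T ask the same question in separate libraries. There 1 gene rose and 1 fell (0.00738% each of 13544), and 568 were called with R28d_T3 left out. Of 13189 genes tested in both arms, 242 were higher without overlap in both. They were 14.4% of those higher in the scramble arm, where 10.6% of all were higher in the Tiparp arm. They were 17.2% of those higher in the Tiparp arm, where 1680 of the 13189 were higher in the scramble arm. For lower genes 80 were shared. They were 10.0% of those lower in the scramble arm, where 5.47% of all were lower in the Tiparp arm. They were 11.1% of those lower in the Tiparp arm, where 798 of the 13189 were lower in the scramble arm. In the remaining direction, 27 and 26 genes were opposite. Gfap, C4b and Cd52 were among those higher in both. Disease-associated microglia genes were higher without overlap in 11 of 17 tested in the Tiparp arm and complement genes in 9 of 11, against 10.9% of all 13544. Cd52 was at 24.3, 12.9 and 2.47 FPKM in R28d_T and 1.16, 1.25 and 1.58 FPKM in Sham_T, and C4b was at 75.2, 52.1 and 15.8 FPKM in R28d_T and 4.72, 4.93 and 4.91 FPKM in Sham_T. These counts include genes tested only because R28d_T was high.

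Genes called at 24 h were followed to 28 d. To avoid shared sham libraries, the list was taken from R24h_T against Sham_T, where 16 genes rose (0.118% of 13509) and 11 fell (0.0814%), each by 1 or more in log2(FPKM + 1). Those 16 had a median difference of 1.61 at 24 h in that arm and of 0.75 at 28 d in the scramble arm, where 9 were higher without overlap and none lower. Of all genes with a value in the scramble arm libraries, 8.68% were higher in that way and 4.44% lower. Fcer1g, the gamma chain of immunoglobulin receptors on myeloid cells, was at 9.94, 24.9 and 17.7 FPKM in R28d_C and 5.86, 6.899 and 5.099 FPKM in Sham_C (1.33 ± 0.30 on the log2 scale). Ptpn6, a phosphatase of leukocyte signalling, was at 1.78, 3.97 and 3.06 FPKM in R28d_C and 1.38, 1.09 and 1.28 FPKM in Sham_C. Gfap and H2-D1, described above, were also in this list. The 11 had a median of -1.58 at 24 h and -0.24 at 28 d, where 2, Adora2a and Lrrc10b, were lower without overlap, against the 4.44% of all genes. Nr4a1 and Egr1, immediate early genes of the list, overlapped at 28 d; Nr4a1 was at 85.4, 41.9 and 78.1 FPKM in R28d_C and 78.4, 85.7 and 63.5 FPKM in Sham_C. None of these genes passed at 28 d. The list itself depended on single libraries: without R24h_T3 it held 182 higher and 70 lower genes, and without Sham_T3 none.

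By the functions given in the deposited table, 777 gene ontology terms with 30 to 300 tested genes were ranked by the median difference of their genes, without a test. The highest was basement membrane, with a median of 0.20 over 44 genes, of which 9 (20.5%) were higher and 1 lower without overlap, where 12.6% and 6.08% of all tested genes were. Positive regulation of phosphatidylinositol 3-kinase signaling (0.17, 34 genes), external side of plasma membrane (0.16, 97 genes), integrin binding (0.16, 56 genes) and epithelial cell differentiation (0.14, 31 genes) followed. The lowest was regulation of synaptic plasticity, at -0.07 over 36 genes, of which 2 were higher and 5 (13.9%) lower. Above it stood response to cocaine (-0.05), long-term synaptic potentiation (-0.04), learning (-0.03) and dendritic shaft (-0.03). Medians of whole terms were thus small beside the differences of the single glial genes above.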

How the data were processed

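The authors deposited 1 table of FPKM by gene, with a column for each of the 18 libraries that carries the sample's title. Per the submitters' processing notes, the authors used HISAT, StringTie and edgeR with build mm9, without versions or roles. RNA was selected for poly(A) and sequenced from both ends with a strand-marking dUTP method, per the labels' protocols. The series text and the protocol name different sequencers. FPKM gives no read totals, so depth is unknown beyond a rough ratio and no counting interval is given.

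Genes that reached 1 FPKM in 3 or more of the libraries fitted were tested as log2(FPKM + 1) with limma 3.58.1 (trend) in R 4.3.3, two-sided, on the libraries of the groups compared, with Benjamini and Hochberg adjustment over all genes at 0.05. Differences are R28d_C minus Sham_C. The pseudocount of 1 understates changes of low genes. The code was tested on simulated data. Alternatives were a pseudocount of 0.1, no filter, a minimum of 5 FPKM, median-ratio scaling, a replicate block, no trend, robust fitting, weights per library, a fit over all 18 libraries and leaving out each library.

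The 38 lists, the comparison and the genes named were chosen with earlier results of these data known. The naming rule took genes past the threshold, the next 10 each way by p and the 10 largest differences each way, both without overlap, and up to 4 genes of smallest p per list. The text gives a part of these, picked with their values seen, and besides them defining markers such as Mbp, P2ry12, Apoe, C3 and Ttr. Some list members are not reported here. Where a symbol had several entries (61 symbols), that of highest mean level was taken. Promoters were searched with Python 3.11.15 in RefSeq's table, in which Vgf, Ube2o, C4b and Trf were not found.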

Additional observations from a re-analysis of the deposited data

Results flagged for a closer look

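Ube2o differed between the arms in its 28 d minus sham difference. It was at 17.4, 18.4 and 18.6 FPKM in R28d_C, against 27.9, 28.9 and 29.8 FPKM in Sham_C, and at 25.9, 23.5 and 27.2 FPKM in R28d_T, against 17.2, 17.4 and 18.4 FPKM in Sham_T. The difference between the arms was -1.15 on the log2 scale (limma interaction, adjusted p = 0.00165 over 14242 genes), and it passed under each of the alternatives run for it, with values of -1.20 to -1.05 and an adjusted p of at most 0.0152. No group of these data has 4 or more libraries, so single libraries were not tested as outliers.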

How the results depend on the processing

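Under alternatives, the numbers of genes higher and lower in R28d_C against Sham_C (3 and 4) were 0 and 3 without a filter, 1 and 2 without a trend, 5 and 7 with array weights and 0 and 0 with all 18 libraries in 1 fit; leaving out single libraries gave 0 to 161 higher and 1 to 27 lower. With a pseudocount of 0.1, a minimum of 5 FPKM, scaling or robust fitting they stayed within 1.5 times. Libraries with the same number did not deviate together (correlations of 0.04, -0.01 and -0.11), so the numbers do not pair them; with the replicate block 0 genes were higher and 1, Cx3cl1, lower. Of the 7 genes, with all 18 libraries in 1 fit none passed, and none reversed under any alternative. Genes without overlap (1691 higher, 816 lower) numbered 2846 and 1455 without a filter, 824 and 522 at 5 FPKM and 1044 and 1378 after scaling, and 2069 to 3414 and 1154 to 1416 with a library left out, where fewer libraries make separation easier. In R28d_T against Sham_T the 2 calls became 1 with a pseudocount of 0.1, without a filter or at 5 FPKM, 0 with the replicate block or all 18 libraries, 2407 with array weights, whose estimate did not converge, and 0 to 568 with a library left out. The 1 call between arms became 5 without a filter, 21 with array weights and 1 to 3 with a library left out. The 28 d median of the genes higher at 24 h (0.75) ranged from -0.12 to 1.07 with a library left out, the lowest from a list of 1 gene, and that of the genes lower at 24 h (-0.24) from -0.50 to -0.040; without a filter no gene was higher at 24 h, so no median could be had. Differences that changed sign, none of them past the threshold, were those of P2ry12 (-0.049 after scaling, and -0.19 without Sham_C3 to 0.13 without R28d_C2), Mbp (-0.0082 without R28d_C2 to 0.17 without R28d_C1), Nr4a1 (-0.39 without R28d_C1 to 0.12 without R28d_C2) and Ttr (-0.072 with a pseudocount of 0.1, -0.87 with array weights, and -1.29 without R28d_C2 to 1.12 without R28d_C3). The cause of these shifts was not tested. With 3 libraries a group and FPKM without read totals, a gene that missed the threshold is not shown to be unchanged.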
